A study of Mus musculus with 6 samples.

Results

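A set of 8031 genomic regions at the ends of mouse genes carried a Runx1 peak in each of 3 chromatin immunoprecipitation sequencing (ChIP-seq) libraries of lung fibroblasts. The set was taken from 56619 union regions on chromosomes 1 to 19, made by merging peaks of the 3 lists that overlapped by 1 bp or more. Members were chosen by the peak calls themselves: a region was kept when all 3 lists held a peak in it and its midpoint lay within 1 kb of either annotated end of a RefSeq gene. These regions are called constant gene-end regions below. The word constant refers to being called in every list and not to an equal signal. Fold enrichments come from the same calls and are given as a description with no test. The 3 other classes set beside them are 5423 constant regions away from gene ends, 8571 gene-end regions not called in all 3 lists, and the remaining regions that meet neither condition.

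The fibroblasts came from lungs of Col1a2-CreERT2;mTmG mice after sham injury, 14 days after bleomycin (D14) and 56 days after bleomycin (D56). Bleomycin is a drug that injures the lung and leads to fibrosis. All 3 groups carry the same 2 transgenes: a tamoxifen-dependent Cre driven by the promoter of the collagen gene Col1a2, and a reporter that switches from a red to a green membrane protein in cells where Cre has acted. The titles mark the cells as GFP cells, so the libraries cover cells in which that promoter was active. There was 1 Runx1 ChIP library and 1 input library per condition, no source used here gives the number of mice behind a library, and conditions cannot be tested against each other. Shares carry 95% Wilson intervals, which measure counting error alone.

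Runx1 belongs to the RUNX family of transcription factors, which bind DNA through the Runt domain, recognise the core TGTGGT, and bind more tightly when paired with the partner Cbfb. RUNX proteins recruit activators or Groucho-type corepressors such as the Tle proteins, and they often bind distal enhancers beside other factors. Gene starts with many CpG dinucleotides, the promoters of most broadly expressed genes, commonly hold GC boxes for SP and KLF factors, CCAAT boxes for NF-Y, and sites for ETS factors and CREB proteins. A ChIP-seq peak at a promoter can reflect direct DNA contact or contact through other proteins, and formaldehyde fixes both.

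The sequences of the 4 highest regions with a promoter in the RefSeq table (build GRCm38.p6, 250 bases before to 50 after the gene start, 300 bases each, written in the direction of the gene) show what such a promoter looks like. Rmnd5a encodes a subunit of the CTLH ubiquitin ligase and its promoter is chr6:71440588-71440887 on the minus strand. Zbtb18, a zinc-finger repressor, lies at chr1:177442101-177442400 on the plus strand. Rnf44, a RING-finger protein gene, lies at chr13:54693911-54694210 on the minus strand. Cggbp1, which encodes a protein that binds CGG repeats, lies at chr16:64851751-64852050 on the plus strand. Capitals mark CCAAT (NF-Y) and GGGCGG (GC box) on either strand.
Rmnd5a: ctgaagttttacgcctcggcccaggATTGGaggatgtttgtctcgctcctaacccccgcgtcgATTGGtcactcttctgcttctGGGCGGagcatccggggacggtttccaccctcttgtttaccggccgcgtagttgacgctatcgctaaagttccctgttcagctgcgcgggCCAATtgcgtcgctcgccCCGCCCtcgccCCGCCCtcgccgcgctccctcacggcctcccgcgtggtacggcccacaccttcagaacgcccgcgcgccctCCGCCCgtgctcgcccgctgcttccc
Zbtb18: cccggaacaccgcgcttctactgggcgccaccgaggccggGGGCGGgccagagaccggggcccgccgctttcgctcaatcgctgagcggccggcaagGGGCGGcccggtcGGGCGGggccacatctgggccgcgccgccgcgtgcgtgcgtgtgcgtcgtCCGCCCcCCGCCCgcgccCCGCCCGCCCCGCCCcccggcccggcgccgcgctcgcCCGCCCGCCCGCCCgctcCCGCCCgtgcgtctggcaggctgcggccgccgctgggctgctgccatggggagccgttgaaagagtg
Rnf44: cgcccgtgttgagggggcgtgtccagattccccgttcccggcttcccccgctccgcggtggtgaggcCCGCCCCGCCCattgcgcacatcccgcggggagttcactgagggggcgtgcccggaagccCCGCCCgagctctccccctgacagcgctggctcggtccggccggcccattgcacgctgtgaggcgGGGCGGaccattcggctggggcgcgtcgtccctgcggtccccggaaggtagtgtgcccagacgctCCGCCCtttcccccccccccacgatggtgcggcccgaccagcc
Cggbp1: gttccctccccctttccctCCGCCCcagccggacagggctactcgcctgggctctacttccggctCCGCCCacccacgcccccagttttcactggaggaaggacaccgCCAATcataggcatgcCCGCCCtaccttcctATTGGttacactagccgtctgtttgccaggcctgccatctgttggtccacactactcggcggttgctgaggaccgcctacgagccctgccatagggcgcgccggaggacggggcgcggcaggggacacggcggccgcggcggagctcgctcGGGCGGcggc
The Rmnd5a promoter held 3 CCAAT and 4 GGGCGG matches and 66.7% G and C, and its D14 summit fell on base 150 of the printed strand. Zbtb18 held 12 GGGCGG matches, no CCAAT match and 81.7% G and C. Rnf44 held 5 GGGCGG matches, and Cggbp1 held 2 CCAAT and 4 GGGCGG matches with the D14 summit on base 139. None of the 4 held TGTGGT, while Rnf44 held TGCGGT, a RUNX variant that is counted further below.

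The 4 highest regions whose promoter did hold the RUNX core are shown next, with TGTGGT on either strand in capitals (ACCACA where it lies on the opposite strand). Ccng1 encodes cyclin G1 (chr11:40755237-40755536, minus strand). Umad1 has its promoter at chr6:8259038-8259337 on the plus strand. Dyrk1b is a protein kinase gene (chr7:28179233-28179532, plus strand), and Vrk1 is another (chr12:106010013-106010312, plus strand).
Ccng1: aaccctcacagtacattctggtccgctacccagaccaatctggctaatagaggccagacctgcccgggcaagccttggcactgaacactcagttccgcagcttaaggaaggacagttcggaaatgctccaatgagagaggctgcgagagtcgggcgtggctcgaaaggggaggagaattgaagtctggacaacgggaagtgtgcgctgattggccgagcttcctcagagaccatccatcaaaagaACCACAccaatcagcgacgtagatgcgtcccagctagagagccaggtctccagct
Umad1: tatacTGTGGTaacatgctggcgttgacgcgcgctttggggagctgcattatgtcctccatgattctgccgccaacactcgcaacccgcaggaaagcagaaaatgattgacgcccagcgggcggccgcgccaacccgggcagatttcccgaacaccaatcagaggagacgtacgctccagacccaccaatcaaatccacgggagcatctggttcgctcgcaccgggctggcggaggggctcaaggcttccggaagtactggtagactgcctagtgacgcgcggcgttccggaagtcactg
Dyrk1b: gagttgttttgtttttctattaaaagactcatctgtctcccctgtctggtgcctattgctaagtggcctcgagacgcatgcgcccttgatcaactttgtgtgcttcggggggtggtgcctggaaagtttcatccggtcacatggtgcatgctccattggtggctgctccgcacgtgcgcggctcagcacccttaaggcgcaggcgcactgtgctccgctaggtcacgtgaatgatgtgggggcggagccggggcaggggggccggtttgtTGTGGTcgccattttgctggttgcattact
Vrk1: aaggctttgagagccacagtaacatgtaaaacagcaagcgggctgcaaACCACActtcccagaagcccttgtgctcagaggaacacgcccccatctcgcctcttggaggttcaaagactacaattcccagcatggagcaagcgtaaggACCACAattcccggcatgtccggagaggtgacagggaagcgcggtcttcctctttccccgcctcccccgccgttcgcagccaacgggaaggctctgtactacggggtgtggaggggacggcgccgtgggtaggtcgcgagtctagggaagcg
In Ccng1 the match began at base 246 and the D14 summit lay at base 199. In Umad1 the match began at base 6 and the D14 summit lay at base 261. Dyrk1b had its match at base 271 and its D14 summit at base 156. Vrk1 held 2 matches, at bases 49 and 149, with the D14 summit at base 244. The D56 summit of Vrk1, at base 153, fell on its match at base 149, and none of the other sham, D14 and D56 summits of these 4 regions fell on one.

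Regions at gene ends were far more often called in all 3 lists than regions elsewhere, as a count over the rule's own calls. Of 13454 regions called in all 3 lists, 59.7% (58.9 to 60.5) lay at gene ends, against 19.9% (19.5 to 20.2) of the 43165 regions not called in all 3. Over all union regions 23.8% were constant, and over gene-end regions 48.4%. The share of constant regions was 62.4% with the midpoint 0 to 100 bp from a gene end, 60.6% at 100 to 250 bp, 36.5% at 250 to 500 bp, 20.2% at 500 to 1000 bp and 16.9% at 1000 to 2500 bp. It was 10.9% beyond 50000 bp. The fall with distance was therefore steep within the first 1000 bp, and the 1 kb limit lay past most of it. The members nearest the limit were at 1110002J07Rik (999 bp, folds of 5.55 in sham, 13.2 at D14 and 5.97 at D56), Gm36904 (997.5 bp) and Ccin (995.5 bp). Just outside it lay Gm36566 (1001.5 bp), Gm38957 (1002 bp) and Gapdh, the glycolytic enzyme gene often used as a reference (1002 bp, folds of 11.0, 15.1 and 11.6 in the same order).

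The lists differed in length and depth, and a region can be constant only where the shortest list holds it. Sham had 48816721 ChIP and 39609538 input tags and 24611 peaks on chromosomes 1 to 19. At D14 there were 78744701 ChIP tags, 49312043 input tags and 55378 peaks. At D56 there were 49669125 ChIP tags, 19949187 input tags and 14704 peaks. The D56 list was the shortest and rested on the smallest input. Constant gene-end regions took up 34.2% of sham peaks, 15.1% of D14 peaks and 57.9% of D56 peaks. Among the peaks in the highest 10% of each list by fold enrichment, they took up 73.8% in sham, 79.2% at D14 and 87.4% at D56. Depth, input size and condition cannot be told apart in this design.

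Fold enrichment is the authors' ratio of ChIP pileup to local background at the summit, scaled within each library, so values were compared across lists as percentiles: the share of a list's peaks with that fold or less. The median fold of the constant gene-end regions was 6.92 in sham, 16.1 at D14 and 8.15 at D56, against medians of 5.07, 5.67 and 6.78 over all peaks of the same lists. Their median percentile was 74.7 in sham, 91.0 at D14 and 65.0 at D56. Constant regions away from gene ends had medians of 63.0, 77.7 and 38.2 in the same order, and gene-end regions not in all 3 lists had 28.1, 44.8 and 26.3 in the lists that called them. The constant gene-end class thus had the highest median in each of the 3 lists. The percentile gap to constant regions elsewhere was widest at D56. There the 13454 constant regions share a list of 14704 peaks, so both constant classes span nearly the whole D56 scale. By median fold the gap was widest at D14, with 16.1 against 9.68, compared with 6.92 against 5.88 in sham and 8.15 against 5.96 at D56. Median peak length in the set was 503 bp in sham, 679 bp at D14 and 356 bp at D56. Merged regions had a median width of 714 bp.

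**Figure D1:**
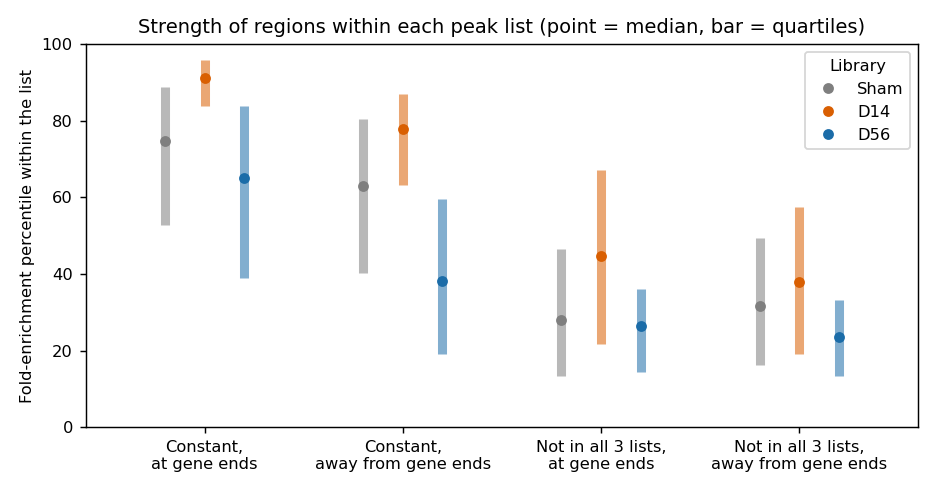
Fold-enrichment percentile within each list (y axis, 0 to 100) for 4 classes of union regions (x axis), with a point for the median and a bar for the quartiles, in sham (grey), D14 (orange) and D56 (blue). Constant regions at gene ends have the highest medians in each list, 74.7, 91.0 and 65.0.

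The order of regions by fold was shared in part between libraries. Over the 8031 constant gene-end regions Spearman's rho of the folds was 0.530 between D14 and sham, 0.558 between D56 and sham and 0.613 between D56 and D14. The same values over 5423 constant regions away from gene ends were 0.337, 0.379 and 0.447. These are descriptions across regions, which are not independent and share GC content, mappability and the library depth. Summit positions were close together. All 3 summits lay within 50 bp of each other in 56.9% of constant gene-end regions and in 46.2% of constant regions away from gene ends, and within 100 bp in 85.8% and 78.6%.

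Where the strand of the nearest gene was known, almost all constant gene-end regions sat at gene starts. The strand was missing for 1654 regions. Strand was known for the nearest gene of 6377 regions, and 96.4% of these (95.9 to 96.8) were nearest a start, with 232 nearest a gene's 3' end. Among gene-end regions not called in all 3 lists the share at starts was 80.1% (79.0 to 81.0), and among the 5953 called at D14 only it was 79.3%. Sham and D14 regions without a D56 peak stood at 85.3%. Relative to the start, the summit had a median position of -28 bp in sham, -23 bp at D14 and -28 bp at D56, where a negative value is upstream. Summits within 100 bp of the start made up 61.7%, 64.3% and 63.5%, and 62.2%, 61.3% and 63.4% lay upstream. The 3 libraries therefore placed their summits over the same stretch just before the start.

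**Figure D2:**
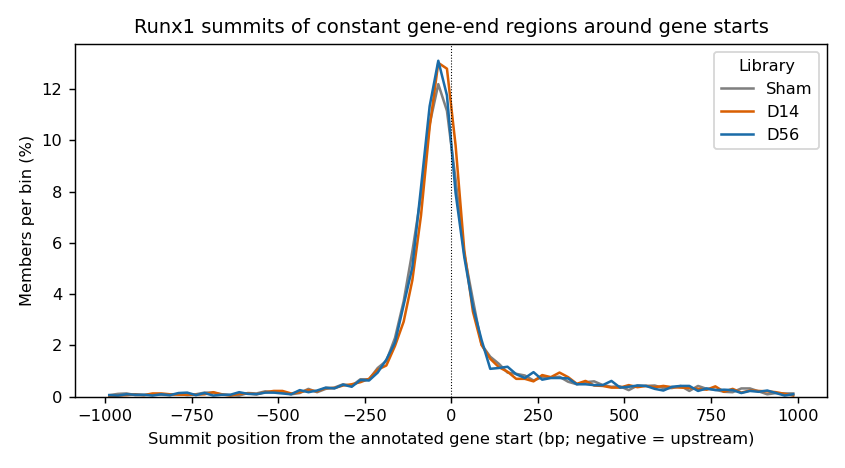
Percent of the 6145 start-proximal constant regions whose summit falls in each 25-bp bin (y axis) against the position relative to the annotated gene start in bp (x axis), 1 line per library. The 3 lines peak in the same bin just upstream of the start, at 12.2% in sham, 13.0% at D14 and 13.1% at D56.

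Pairs of genes that start close together and run away from each other, called divergent here when both starts lay within 1 kb of the midpoint, were held by 834 constant gene-end regions, 10.4% of them (9.74 to 11.1). The share was 3.49% (3.12 to 3.90) among gene-end regions not called in all 3 lists. Divergent starts are seen only where strand is known. The 2 classes differ in regions nearest a known start, with 6145 of 8031 against 4940 of 8571. The part of this in the 2 shares was not tested. The median mean percentile, averaged over the 3 lists, was 81.0 at divergent starts, 75.4 where 1 start was near and 74.0 with 2 or more starts that were not divergent. Ncl, which encodes the nucleolar protein nucleolin, and Umad1 were 2 of the 20 highest regions and lay at divergent starts. Ncl had folds of 15.8 in sham, 33.1 at D14 and 23.1 at D56.

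By type of gene, 8252 of 20661 protein-coding genes (39.9%) had a constant region within 1 kb of an end, against 46.2% with any sham region there, 57.4% with any D14 region and 40.6% with any D56 region. The D56 list therefore limits the set more than the others. Of all 47038 annotated genes 21.4% had one. Long noncoding RNA genes stood at 11.4% (1415 of 12408), microRNA genes at 7.31% (83 of 1136), small nucleolar RNA genes at 3.11% and pseudogenes at 0.855%. Protein-coding genes with such a region had a median length of 22.0 kb, against 14.3 kb for those without. Across chromosomes the share of protein-coding genes ran between 32.8% on chromosome 14 and 47.1% on chromosome 8.

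Genes of the kinds that RNA polymerase III transcribes also had constant regions near their ends. Of 391 tRNA genes 107 (27.4%, 23.2 to 32.0) had a constant region within 1 kb, in 82 distinct regions. Of these 82, 30 also lay within 1 kb of a protein-coding gene's end and 52 did not. The highest of these 52 was at n-TNgtt14, a tRNA gene for asparagine, with folds of 6.78 in sham, 31.4 at D14 and 12.9 at D56. Rpph1, the RNA of ribonuclease P, had folds of 6.91, 23.8 and 14.5, and Rmrp, the RNA of ribonuclease MRP, had 6.55, 18.2 and 10.2. Rn7s1 and Rn7s2 encode RNAs of the signal recognition particle, and Rn7s2 had 11.0, 19.0 and 9.69. The Rpph1, Rmrp and Rn7s1 regions lay within 1 kb of a protein-coding gene's end, which for Rn7s1 was that of Rps29, and the Rn7s2 region did not. Many tRNA genes and the signal recognition particle RNA genes have near-identical copies in the genome. No source used here says how reads with several possible positions were treated. The same holds for Rn18s-rs5, a ribosomal RNA related locus with pileups of 950 in sham, 2176 at D14 and 361 at D56, which was among the widest regions at 5860 bp.

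The 20 highest regions by mean percentile were led by Rmnd5a, with folds of 21.3 in sham, 50.3 at D14 and 26.4 at D56. Zbtb18 followed with 22.1, 59.3 and 23.4. Rnf44 stood at 17.6, 49.8 and 24.1, and Cggbp1 at 18.8, 48.2 and 22.8. In each of these the D14 fold was the highest of the 3, as it was for the median of the whole set, but folds are not on 1 scale across libraries. By percentile the lists were close together here, with Rmnd5a at 99.96 in sham, 99.99 at D14 and 99.97 at D56. Eif2a, a translation initiation factor, had 18.8, 38.4 and 22.0. Hmgb2, a DNA-bending high-mobility-group protein, had 15.4, 34.0 and 30.5, the highest fold of the D56 list. Gpbp1, whose product binds GC-rich promoters, had 14.5, 31.9 and 23.6. Nr1d2, the clock repressor REV-ERB beta, had 19.0, 28.3 and 23.3. Tle4, a Groucho-type corepressor that RUNX proteins recruit, had 15.0, 33.0 and 23.2. Nus1, a subunit of the enzyme that makes dolichol, had 15.4, 39.6 and 21.3. The other members of the 20 were Adam9, Ralgapa2, Aplp2, Tmem65, Dnpep, Napa, Ccng1, Tmem123, Ncl and Umad1, whose sham folds lay between 14.1 in Dnpep and 22.5 in Napa and whose D14 folds lay between 29.8 in Ccng1 and 43.6 in Adam9.

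Part of the set changed its rank between lists by a wide margin while staying in all 3. The within-list percentile differed by over 50 between D14 and sham in 956 of the 8031 regions and between D56 and sham in 661. Ranked among regions called in all 3 lists, the counts were 631 and 641. Over the whole set the within-list percentile at D14 minus that in sham had a median of 13.7, and D56 minus sham had a median of -5.68. When percentiles were taken only among the 13454 regions called in all 3 lists, the medians were 5.68 and 3.33, so the direction of the D56 difference depends on the peaks it is ranked against. The regions named next are the extremes among those with a mean percentile of 50 or more. The largest D14 gains among them were at Tubgcp5, a gamma-tubulin complex gene, with folds of 2.80 in sham, 23.6 at D14 and 6.87 at D56. Abcd3, a peroxisomal fatty acid transporter, was next with 2.80, 23.4 and 10.8. Hdhd5, Acadl, a mitochondrial long-chain acyl-CoA dehydrogenase, and Nrarp, a Notch pathway regulator, followed, with D14 folds of 23.1, 19.3 and 19.9 and sham folds of 3.04, 2.85 and 2.92. All 5 had sham folds near the bottom of the sham list.

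Under the same limit of a mean percentile of 50, the regions lowest at D14 relative to sham were C1ra, a complement protease (folds of 8.23 in sham, 4.99 at D14 and 6.89 at D56), Csrp1, Ptk7, Gab2 and Mgp. Mgp encodes matrix Gla protein, an inhibitor of calcification, and had folds of 6.63, 4.46 and 8.30. Csrp1 had 10.7, 5.66 and 7.74, at a region 850.5 bp from the gene's 3' end. The Gab2 region lay 988 bp from an end whose type was not known. Ranked among regions called in all 3 lists, D14 minus sham was -83.2 at Gab2, -82.4 at Csrp1, -79.0 at Ptk7, -68.4 at C1ra and -49.9 at Mgp. Weaker regions could fall further, such as that of the fibroblast receptor gene Pdgfra, with percentiles of 69.7 in sham, 14.0 at D14 and 6.30 at D56. At D56 the lowest relative to sham, within the limit, was Osmr, the oncostatin M receptor, with folds of 15.2, 10.5 and 2.91, and percentiles of 99.4, 80.4 and 0.299. Icam1, a leukocyte adhesion receptor, had 12.1, 9.31 and 3.39, and Tcf21, a transcription factor of lung fibroblasts, had 11.4, 7.21 and 3.47. Zfp51 and Sppl2a completed that group, with D56 folds of 3.50 and 3.64. D56 pileups were 28 at Osmr, 32 at Icam1, 23 at Tcf21, 30 at Zfp51 and 24 at Sppl2a, against a median of 28 over the set. The low D56 ranks of this group are therefore ranks of the ratio to local background and not of pileup. The highest at D56 relative to sham were Abcd3, Atxn7l3b, Dtl, Tor2a and Slc25a15. Dtl, which directs degradation of replication factors, had 3.73, 18.5 and 14.4. With 1 library per condition none of these shifts can be set against replicate spread.

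**Figure D3:**
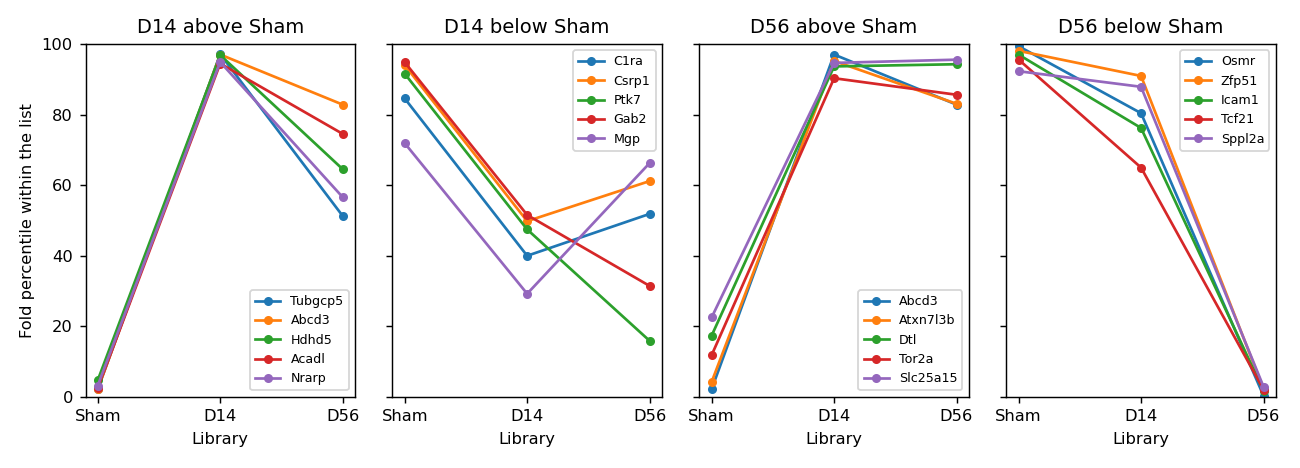
Within-list fold percentile (y axis) in sham, D14 and D56 (x axis) for the 5 regions with the largest D14 gain, D14 loss, D56 gain and D56 loss against sham, 1 line per region, among regions with a mean percentile of 50 or more. The regions that lost most at D56, led by Osmr, fell to percentiles below 3 there, and the regions that gained most at D14 started below 5 in sham.

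Lists of genes sorted by function differed widely in how many members had a constant gene-end region, read against 39.9% of all protein-coding genes. The lists also differed in the CpG content of their promoters, and counts by promoter class are given for some of them below. The lists cover 601 genes on chromosomes 1 to 19. Counts that moved by over 1.5 times under a reciprocal overlap of 50%, at a fold of 5 or more or with the sham and D14 lists alone are given with that value. Under the reciprocal overlap the count over all protein-coding genes fell to 4911, against 8252 with an overlap of 1 bp. In protein synthesis and folding, all 8 CCT chaperonin subunits, which fold actin and tubulin, had one, led by Cct7 (folds of 13.0, 18.1 and 16.4 in sham, D14 and D56). So did 66 of 75 cytosolic ribosomal proteins, 26 of 29 translation initiation factors and 17 of 20 cytosolic aminoacyl-tRNA synthetases. Among ribosomal proteins Rps12 was highest with 9.55, 18.4 and 19.3, and Rpl12 lowest with 3.85, 10.7 and 4.77. Eif5, which triggers GTP hydrolysis during start codon selection, had 14.1, 25.0 and 16.7. Tars, the threonyl-tRNA synthetase, had 13.5, 15.6 and 11.8. In protein turnover, 25 of 31 proteasome subunits had one, with Psmc4 highest at 10.5, 30.5 and 15.6, and 22 of 24 autophagy genes did, with Wipi1 at 13.7, 24.2 and 23.8. Under the reciprocal overlap the counts were 5 for the CCT chaperonin, 14 for initiation factors, 11 for synthetases, 13 for the proteasome and 13 for autophagy. At a fold of 5 or more the proteasome count was 14.

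RNA polymerase II and Mediator subunits had one in 32 of 36 genes, led by Med26 (13.7, 33.5 and 19.6). The counts were 21 of 26 for SR and hnRNP splicing factors, 15 of 17 for replication helicase and origin genes, 17 of 22 for Polycomb genes, 13 of 17 for SWI/SNF remodellers and 26 of 34 for mitochondrial complex I. Hnrnpa3, an RNA-binding splicing factor, had folds of 24.0, 35.3 and 18.2. Mcm6, a subunit of the replicative helicase, had 12.9, 30.5 and 13.3, and Ezh2, the Polycomb methyltransferase, had 9.18, 34.4 and 16.3 at a region whose nearest gene end belongs to F830010H11Rik. Circadian clock genes had one in 14 of 18, with Cry2 at 16.4, 31.9 and 13.9 and Per2 at 11.6, 22.5 and 13.4. Under the reciprocal overlap complex I had 17, Polycomb 10 and SWI/SNF 7. At a fold of 5 or more RNA polymerase II and Mediator had 21 and SWI/SNF 8.

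**Figure D4:**
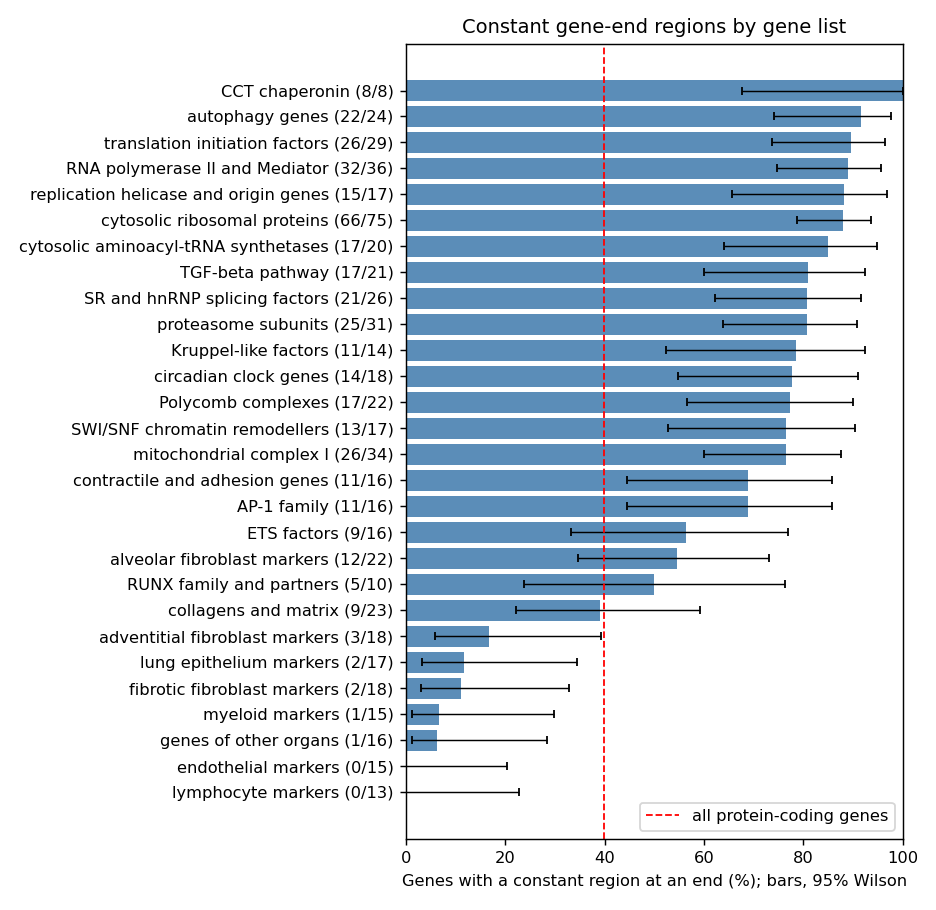
Percent of each list's genes on chromosomes 1 to 19 with a constant region within 1 kb of an end (x axis, 0 to 100) for 28 gene lists (y axis, with counts), bars with 95% Wilson intervals and a dashed line at the 39.9% of all protein-coding genes. Lists of broadly used machinery lie between 76.5% and 100%, and markers of other lung cell types between 0% and 11.8%.

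Transcription factor families and signalling genes were mixed. Of the RUNX family and its partners 5 of 10 had a constant gene-end region: Tle4, Tle1 (13.0, 48.6 and 19.6), Cbfb, Cbfa2t2 and Tle3. Cbfb, the partner subunit that strengthens RUNX binding to DNA, had folds of 9.63 in sham, 18.8 at D14 and 10.9 at D56. Runx1 itself had a gene-end region in the D14 list only, with a fold of 4.08, Runx3 in the D14 list only, with 6.46, and Runx2 in none. Annotated ends are the outermost ends of a gene, so internal promoters do not count here. Under the reciprocal overlap the RUNX, AP-1 and ETS lists had 3 each. Krüppel-like factors had one in 11 of 14, with Klf11 (14.5, 36.0 and 20.4) and Klf6 (21.1, 31.5 and 18.1) highest. AP-1 genes had one in 11 of 16, led by Jun (13.4, 25.4 and 14.7), and ETS factors in 9 of 16, led by Etv5 (15.3, 40.6 and 15.1). The start of Fos, an AP-1 gene counted as without one, lay inside a constant region 4060 bp wide whose midpoint was 1089.5 bp away, and Erf among the ETS genes had an end covered in the same way. Of the 12409 protein-coding genes without a member, 6 were of this kind. Atf3, an AP-1 gene induced by stress, had folds of 16.3, 9.89 and 13.5. Its percentiles were 99.7, 78.4 and 92.3, lowest at D14, where the median percentile of the set was highest.

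The TGF-beta pathway, which drives matrix production in fibroblasts, had a constant gene-end region in 17 of 21 genes. Tgfbr1, the type I receptor, had folds of 13.5, 24.7 and 18.7. Skil and Ski, corepressors of SMAD proteins, had 11.5, 26.7 and 20.6 and 18.1, 19.2 and 18.8, and Bambi, a decoy receptor, had 11.6, 35.2 and 15.2. Contractile and adhesion genes had one in 11 of 16, among them Myh9 (13.1, 19.3 and 16.6), and not in Acta2, Tagln, Cnn1, Srf or Cald1. All 16 had a D14 region at an end, 14 had a sham region there and 11 a D56 region. Collagen and matrix genes stood at 9 of 23 (39.1%), close to the share of all protein-coding genes. P4ha1, a prolyl hydroxylase subunit, had 11.5, 27.4 and 13.1, Fn1 had 7.02, 19.0 and 12.9, and Col1a2, whose promoter drives Cre in these mice, had 8.06, 14.0 and 8.88. Under the reciprocal overlap the TGF-beta count was 7 and the contractile count 6, and with the sham and D14 lists alone the collagen and matrix count was 16.

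Marker genes of fibroblast states were mixed, and those of other cells were mostly outside the set. Alveolar fibroblast markers had a constant gene-end region in 12 of 22 genes, and 21 of the 22 had a D14 region at an end. The median over the 12 of each gene's highest mean percentile was 45.6, against 75.0 over all constant gene-end regions. Foxf1, a factor of lung mesenchyme, had folds of 6.63, 16.8 and 5.29, and Inmt, the lowest, had 3.63, 2.65 and 6.12. Adventitial fibroblast markers had one in 3 of 18, Has1, Mfap5 and Dpt. Markers of fibrotic fibroblasts had one in 2 of 18, Pmepa1 (11.2, 19.4 and 13.8) and Sfrp1 (8.15, 12.3 and 8.11), while 13 of the 18 had a D14 region at an end, read against 57.4% of all protein-coding genes. Cthrc1, which marks fibrotic fibroblasts, was among those found in the D14 list only. Endothelial markers had one in 0 of 15 genes, lymphocyte markers in 0 of 13, lung epithelium markers in 2 of 17 (Rtkn2 and Foxj1), myeloid markers in 1 of 15 (Spi1) and genes of other organs in 1 of 16 (Krt10). Few of these other-cell genes have CpG-dense promoters: none of the myeloid, lymphocyte and other-organ genes with a promoter in the table do. Over all protein-coding genes whose promoter was not CpG-dense, 15.0% had a constant region. Promoters were CpG-dense in 4 of 9 endothelial and 2 of 9 lung epithelium genes. None of these CpG-dense genes had a constant region, against 67.0% of all protein-coding genes with a CpG-dense promoter. A peak does not measure expression, so these counts do not test the fibroblast label or show which cells were present. The small counts also moved with the setting. Under the reciprocal overlap alveolar markers had 4 and fibrotic, myeloid and other-organ genes 0. At a fold of 5 or more alveolar markers had 3, lung epithelium 1, and adventitial and myeloid markers 0. With the sham and D14 lists alone adventitial markers had 7, lung epithelium 5, myeloid 2 and other-organ genes 2.

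The promoters in the set were rich in CpG dinucleotides. Of 8155 promoters that met a constant gene-end region, 83.2% (82.4 to 84.0) were CpG-dense, defined as 50% or more G and C with an observed over expected CpG ratio of 0.6 or more. The share was 56.3% among 4713 promoters that met another region and 6.73% among 18497 that met none. Median G and C content was 63.7%, 59.7% and 48.0% in the same order. Among protein-coding genes, 67.0% of the 8191 with a CpG-dense promoter had a constant gene-end region, against 15.0% of the 8238 whose promoter was not. Ribosomal proteins and other lists lie on both sides of this division. Of the 10 ribosomal protein genes whose promoter was not CpG-dense, 8 had a constant region, and of the 5 such autophagy genes, 5 did. Lower counts were 3 of 6 for complex I, 2 of 4 for the proteasome, 3 of 9 for collagen and matrix genes, 2 of 10 for adventitial markers and 0 of 7 for fibrotic markers. Among listed genes with a CpG-dense promoter, read against 67.0%, ribosomal proteins had 41 of 44 and the proteasome 19 of 21. Polycomb genes had 13 of 18, AP-1 genes 7 of 10, RUNX genes and partners 5 of 8 and fibrotic markers 0 of 4.

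The RUNX core was not more frequent in these promoters than elsewhere. TGTGGT on either strand was in 10.5% (9.86 to 11.2) of promoters that met a constant gene-end region, in 13.1% of those that met another region, in 20.3% of those that met none and in 16.7% of all 31365. Within CpG-dense promoters the shares were 9.72%, 9.27%, 8.92% and 9.52%, which lie within 1 percentage point of each other. The longer TGTGGTT was in 2.91% of promoters in the set and 5.32% of all. TGCGGT, a RUNX variant with a CpG, was in 11.0%, 9.17% and 3.79% of the 3 classes in the same order, and in 11.9%, 11.8% and 10.7% within CpG-dense promoters. A short motif match describes the letters and not binding, and only 300 bases around the start were searched.

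Some other motifs were more frequent in the set, also at equal CpG class. Each motif was searched on both strands in the same 300 bases. The ETS core CCGGAA was in 33.3% of promoters that met a constant gene-end region, 20.2% of those that met another region, 5.71% of those that met none and 15.1% of all. Within CpG-dense promoters the first 3 shares were 35.3%, 25.2% and 14.8%. CCAAT, bound by NF-Y, was in 41.2%, 31.2%, 37.1% and 37.3%, and within CpG-dense promoters in 39.9%, 26.9% and 26.9%. The GC box GGGCGG was in 73.9%, 58.3%, 13.5% and 36.0%, and within CpG-dense promoters in 79.0%, 73.8% and 62.4%. The CRE motif TGACGTCA, bound by CREB proteins, was in 4.23%, 2.21%, 0.676% and 1.83%, and within CpG-dense promoters in 4.51%, 2.45% and 2.41%. The AP-1 motif TGANTCA was rarer in the set, at 3.70% against 7.72%, 9.71% and 7.85%, and within CpG-dense promoters at 3.06%, 3.69% and 3.30%. The TATA motif TATAAA was in 5.09%, 7.38%, 19.0% and 13.6%, the E-box CACGTG in 11.6%, 8.57%, 4.81% and 7.14%, and the TEAD core GGAATG in 10.4%, 13.9%, 16.6% and 14.6%. Within CpG-dense promoters the first 3 shares lay closer together. They were 4.30%, 4.60% and 6.03% for TATAAA, 12.3%, 9.83% and 10.2% for CACGTG, and 9.37%, 10.4% and 8.84% for GGAATG.

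Of the 10 motifs searched, CCAAT was the one whose share differed most between weak and strong regions. When the promoters of the set were cut into 5 equal groups (quintiles) by mean percentile, weakest to strongest, CCAAT was in 30.3%, 35.0%, 38.8%, 47.5% and 54.4%. Within CpG-dense promoters it was in 26.5%, 30.7%, 37.8%, 46.4% and 54.5%. GGGCGG ran between 62.8% in the weakest and 83.6% in the strongest quintile, while the share of CpG-dense promoters ran between 73.6% and 91.4%. Within CpG-dense promoters GGGCGG was in 71.4%, 73.9%, 80.4%, 81.2% and 86.1%, weakest to strongest. CCGGAA was in 32.7% and 30.9% of the weakest and strongest quintiles, and TGTGGT in 11.6% and 11.2%. The steady order over the 5 groups was therefore seen for CCAAT and GGGCGG and not for the RUNX core.

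The position of matches around the summit told the motifs apart as well. In 6339 promoters that contained the D14 summit, CCAAT matches had a density of 4.24 per kb within 50 bp of it and 1.47 per kb at 100 to 200 bp, a ratio of 2.88. The ratio was 2.34 for CCGGAA, 2.21 for GGGCGG and 12.1 for TGACGTCA, the last on 215 matches near the summit and 18 farther out. The TGACGTCA ratio was 7.71 with sham summits and 11.0 with D56 summits. TGTGGT had 0.304 per kb near the summit and 0.468 per kb farther out, a ratio of 0.650, on 185 and 290 matches. With sham summits the TGTGGT ratio was 0.625 and with D56 summits 0.602, and CCAAT had 2.90 and 3.00. In all 3 libraries CCAAT matches were denser near the summit and TGTGGT matches sparser. Summits lie near gene starts and motifs have their own preferred positions there, and the part of this in the ratios was not tested.

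**Figure D5:**
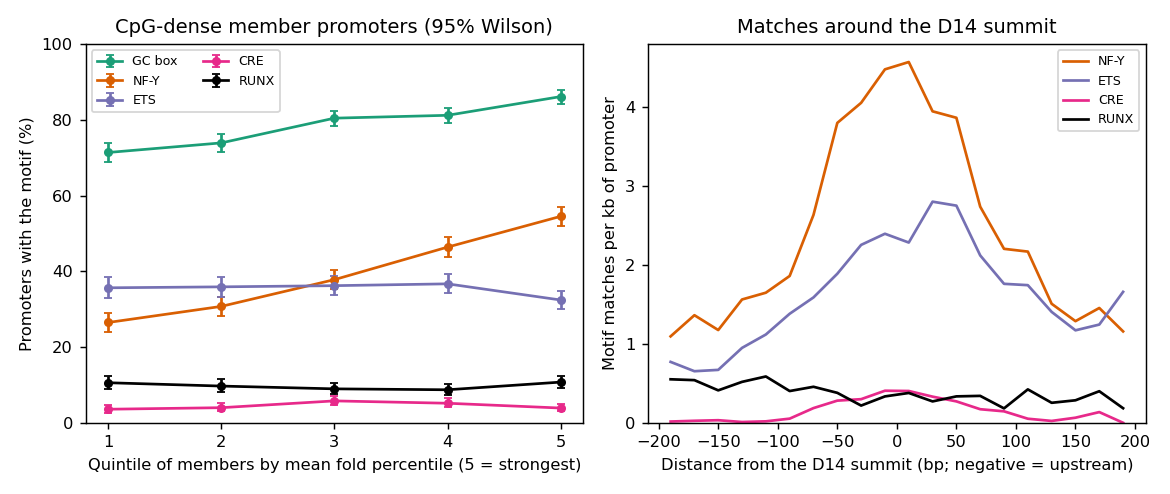
Left, percent of CpG-dense promoters in the set that hold each motif (y axis) by quintile of mean fold percentile (x axis, 5 strongest), with 95% Wilson intervals. Right, motif matches per kb of promoter (y axis) against distance from the D14 summit in bp (x axis), with no line for the GC box. The NF-Y motif CCAAT runs between 26.5% in the weakest and 54.5% in the strongest quintile and peaks at the summit, where the RUNX core TGTGGT does not.

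The set also held a few regions of unusual shape. The widest was at Egr1, an immediate early transcription factor, at 9105 bp with folds of 8.17 in sham, 14.9 at D14 and 9.75 at D56. Junb, an AP-1 gene, had 5951 bp and folds of 12.9, 12.1 and 8.16, at percentiles of 98.0, 84.5 and 65.1. Lars2, a mitochondrial leucyl-tRNA synthetase gene, had D14 pileup 1364 over only 388 bp, against pileups of 528 in sham and 215 at D56, where the median over the set was 60 in sham, 115 at D14 and 28 at D56. Its folds were 5.04, 18.2 and 4.71 in sham, D14 and D56, at percentiles of 49.4, 93.3 and 14.4. How reads with several possible positions were treated is not known for this region either. Of the protein-coding genes 398 had 2 or more constant regions at their ends.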

How the data were processed

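Runx1 ChIP-seq was measured in 3 ChIP libraries, each with its input, in lung fibroblasts. The submitters' processing notes name BWA, SAMtools, MACS2 and the mm10 build. Per the file headers, the authors called peaks with MACS 2.0.10.20120913 per ChIP library against its own input, at a q-value cutoff of 0.01, and nothing was pooled. The deposited values are the pileup signal (coverage at the summit, scaled within a library), −log10 p-values and −log10 q-values, and the fold enrichment, the ratio of pileup to local background. Pileups and folds are therefore not on 1 scale across libraries and were ranked within lists. A region's fold is that of its strongest peak in the list.

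From there, peaks were merged, regions annotated with RefSeq genes (GRCm38.p6) and promoters searched for motifs (Python 3.11.15, pandas 2.3.3, numpy 2.4.6). Strand was known only through the promoter table, and promoters of chromosome 18 were not analysed here. The merging was tested on simulated peaks with the same coordinates in each list, which leaves partial overlaps untested. Groups came from the sample titles. No p-value is given. Named genes are the 20 highest members, the 5 largest shifts in each direction among members with a mean percentile of 50 or more, the highest up to 4 per gene list, and Runx1, Runx2, Runx3 and Cbfb; genes at the distance limit, of unusual width or pileup, the lowest or remaining members of lists, small RNA genes, Pdgfra, Fos, Erf and genes named as without a region were chosen after their values were seen. Members and lists were chosen with earlier results of these data known. Of 615 listed genes, 1 matched through a synonym.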

Additional observations from a re-analysis of the deposited data

How the results depend on the processing

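With 1 library per condition there is no replicate spread, intervals cover counting error only, and the D56 list, with the smallest input, limits what can be constant. No paired analysis was possible because each condition has 1 library and no result comes from a test. Against 8031 regions, 8252 protein-coding genes, 59.7% of constant regions at gene ends, 96.4% nearest a start and a median mean percentile of 75.0, a reciprocal overlap of 50% gave 4692 regions, 4911 genes and a percentile of 79.9. A −log10 q of 5 or more gave 63.5% at gene ends and a percentile of 73.7. A fold of 5 or more gave 67.9%, 97.2% at starts and 71.9. Lists cut to the 14704 strongest peaks by −log10 p gave 69.3%, 97.3% and 65.4. A gene-end distance of 500 bp gave 54.0%, 97.9% and 75.9, and 2.5 kb gave 67.4%, 93.9% and 73.7. Protein-coding genes only gave 54.5%, 97.6% and 75.9. Percentiles taken among regions in all 3 lists, added after seeing the data, had a median of 59.6. TGTGGTT in place of TGTGGT gave 2.91% against 10.5%. Summits within 200 bp and the median summit in place of the midpoint moved none of these 5 results. Versions with 2 lists, also added after seeing the data, gave 10105 regions for sham and D14, 8034 for sham and D56 and 8201 for D14 and D56. Of the 39 named regions 16 were members under every setting. At a fold of 5 or more 17 were lost, with lists of equal length 12 and under the reciprocal overlap 10. Of the 28 gene list counts, 17 moved by over 1.5 times under the reciprocal overlap, 7 at a fold of 5 or more and 5 with the sham and D14 lists alone. Those are named beside their counts above. Counts that moved under other settings are not named: 3 at a −log10 q of 5 or more, 4 with lists of equal length, 4 at 2.5 kb, 2 at 500 bp and 1 with the median summit. Where a value moved, the cause was not tested.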
